A study of Sus scrofa with 90 samples.

Results

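Gene expression was compared between muscle lesions of 7 d and muscle that was not injected, in the same pigs. The lesions were made in the Longissimus dorsi, the long muscle of the back, by intramuscular injection of propylene glycol, a solvent that serves as a vehicle for injected drugs. The series holds 48 muscle samples of 10 piglets, with sites for lesions of 6 h, 2 d, 7 d and 21 d and for a control placed at random. Pig J has no 7 d sample and pig L no 21 d sample among those used here. The comparison uses the samples labelled as 7 d lesions and as controls, paired by the letter of the pig. It has 18 of the 48 samples, 9 lesions and 9 controls from pigs C, D, E, F, G, H, I, K and L. Both members of a pair come from 1 animal that carried the other lesions as well, so the control is an untreated site and not an untreated animal. Breed, sex and age of the piglets were not given in the sources used here.

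Each sample was taken as read on 1 nylon cDNA array, on which radioactively labelled cDNA binds to spotted clones, here called features. The deposited numbers are logarithms, and their base was not given in the sources used here. Differences are therefore stated in log units, as 7 d minus control after quantile normalization, and no fold changes are given. A feature was called when its adjusted p was below 0.05 in a paired limma fit, with Benjamini-Hochberg adjustment over the 1908 features that have a value in every column. Of these, 206 carry 1 gene symbol (121 genes) and 1702 carry none. A gene below stands for the feature listed under its symbol, by default the one with the highest mean value where a gene has several. The match between symbols and features is undecided, since features of 1 gene did not move together, as described below.

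Muscle that has been injured by an injected irritant loses fibres, is entered by inflammatory cells that clear the debris, and is then rebuilt from satellite cells, the muscle stem cells, with connective tissue laid down between the fibres. Regenerating fibres assemble new sarcomeres, the contractile units of thin actin and thick myosin filaments held at the Z disc. RNA from a piece of lesion mixes all these cells, so a change in the number of cells of a type and a change in RNA per cell cannot be told apart here.

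At 7 d 430 of 1908 features were called, 22.5% of those tested. Of these 192 were higher in the lesion (10.1%) and 238 were lower (12.5%). An unadjusted p below 0.05 was reached by 639 features. The differences ran from -0.85 to 2.45, with a median of -0.01 over all features. After quantile normalization a rise of 1 log unit or more was called in 21 features, and a fall of that size in 0 features, by limma. This depends on the scaling. On the deposited values 127 features were called higher and 322 lower, and among the genes named below falls reached -1.57 (CAPNS1). With arrays scaled by their median absolute deviation the counts were 139 higher and 130 lower, and with the array SD as a term in the fit 103 and 35. The median called rise was 0.53 and the median called fall -0.43. In 198 of the 430 features all 9 pigs moved the same way, 99 times up and 99 times down. For 91 features (4.77%) all 9 lesions lay outside the range of the 9 controls, 57 above and 34 below.

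**Figure D1:**
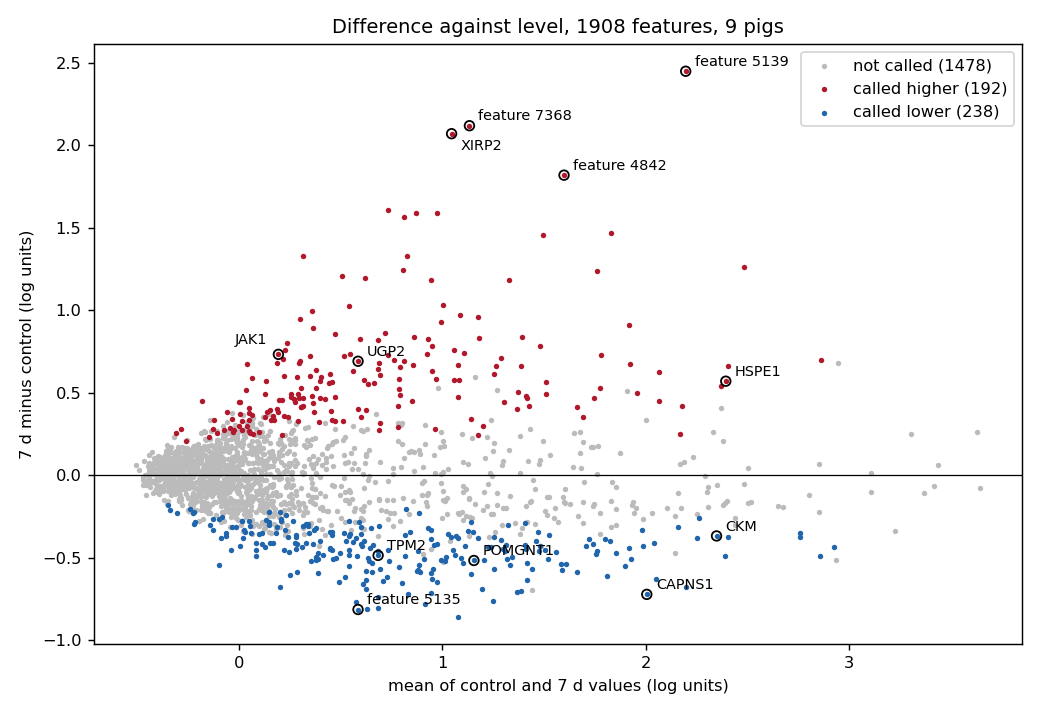
Difference between the 7 d lesion and control (vertical axis, log units, mean of 9 pigs) against the mean of both groups (horizontal axis, log units) for 1908 features. Red points are the 192 features called higher, blue points the 238 called lower, and circles mark named features. The called rises reach 2.45 while the falls end at -0.85.

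Of the 121 genes with a symbol 23 were called (19%), 8 higher and 15 lower, and 12 of them had the same sign in 9 of 9 pigs. This share is close to the 22.5% called over all features.

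The clearest change under a gene symbol was in XIRP2, which encodes an actin-binding protein of striated muscle with xin repeats. Its values ran from -0.12 to 0.36 in the 9 controls (median -0.03) and from 1.59 to 2.65 in the 9 lesions (median 1.97). Every lesion lay above every control, and the smallest rise of a single pig was 1.70 in pig C. The mean rose from 0.01 ± 0.14 to 2.08 ± 0.39 (SD, n = 9), a difference of 2.07 (SE 0.10, adjusted p = 3.73e-08). On the deposited values without normalization the difference of XIRP2 was 1.64.

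Among genes of signalling and of the cell surface, JAK1, a tyrosine kinase that carries signals from cytokine receptors, ran from -0.38 to 0.12 in controls (median -0.21) and from -0.06 to 1.19 in lesions (median 0.58). Of the 9 lesions 7 lay above all controls, and pigs D and E had the largest rises. JAK1 rose by 0.73 (SE 0.145, adjusted p = 0.00283), with 8 of 9 pigs higher. ANPEP, a peptidase of the cell surface known from myeloid cells and fibroblasts among others, ran from -0.18 to 0.37 in controls (median 0.14) and from 0.25 to 1.24 in lesions (median 0.73). Only pig G had a lower value in the lesion. ANPEP rose by 0.62 (SE 0.127, adjusted p = 0.00362). Its other feature, of lower value, was at 0.003 and was not called (adjusted p = 0.981). The other measured members of the signalling list (MIF, MAPK12, NFKBIA and PRKAG3) were not called, with MAPK12, a stress kinase of muscle, at -0.30 (SE 0.101, adjusted p = 0.0501) and MIF, a cytokine, at -0.28 (SE 0.124, adjusted p = 0.124). Without pig C MIF was called at -0.38 (adjusted p = 0.0203), and without pig K or pig L MAPK12 was called at -0.34 in both cases (adjusted p = 0.0463 and 0.0404).

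UGP2, the enzyme that makes UDP-glucose for glycogen and for glycoproteins, ran from -0.19 to 0.54 in controls (median 0.35) and from 0.51 to 1.30 in lesions (median 0.99). All 9 pigs were higher at 7 d, by 0.17 in pig G to 1.34 in pig L. UGP2 rose by 0.69 (SE 0.142, adjusted p = 0.00347), but on the deposited values it differed by 0.43 and was not called (adjusted p = 0.0786). HSPE1, the co-chaperonin of mitochondria, ran from 1.94 to 2.51 in controls (median 2.09) and from 2.40 to 2.96 in lesions (median 2.64), and it rose by 0.57 (SE 0.0786, adjusted p = 0.000241) in 9 of 9 pigs. The direction of HSPE1 depends on the normalization, since on the deposited values it differed by -0.39 and was not called (adjusted p = 0.261). There pigs C and L were higher for HSPE1 at 7 d, and the other 7 pigs were lower. MGST3, a microsomal glutathione transferase, rose by 0.32 (SE 0.0909, adjusted p = 0.0228) in 9 of 9 pigs, and it too was of the opposite sign on the deposited values, at -0.07 (adjusted p = 0.687). Without pig I MGST3 was not called (adjusted p = 0.056).

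**Figure D2:**
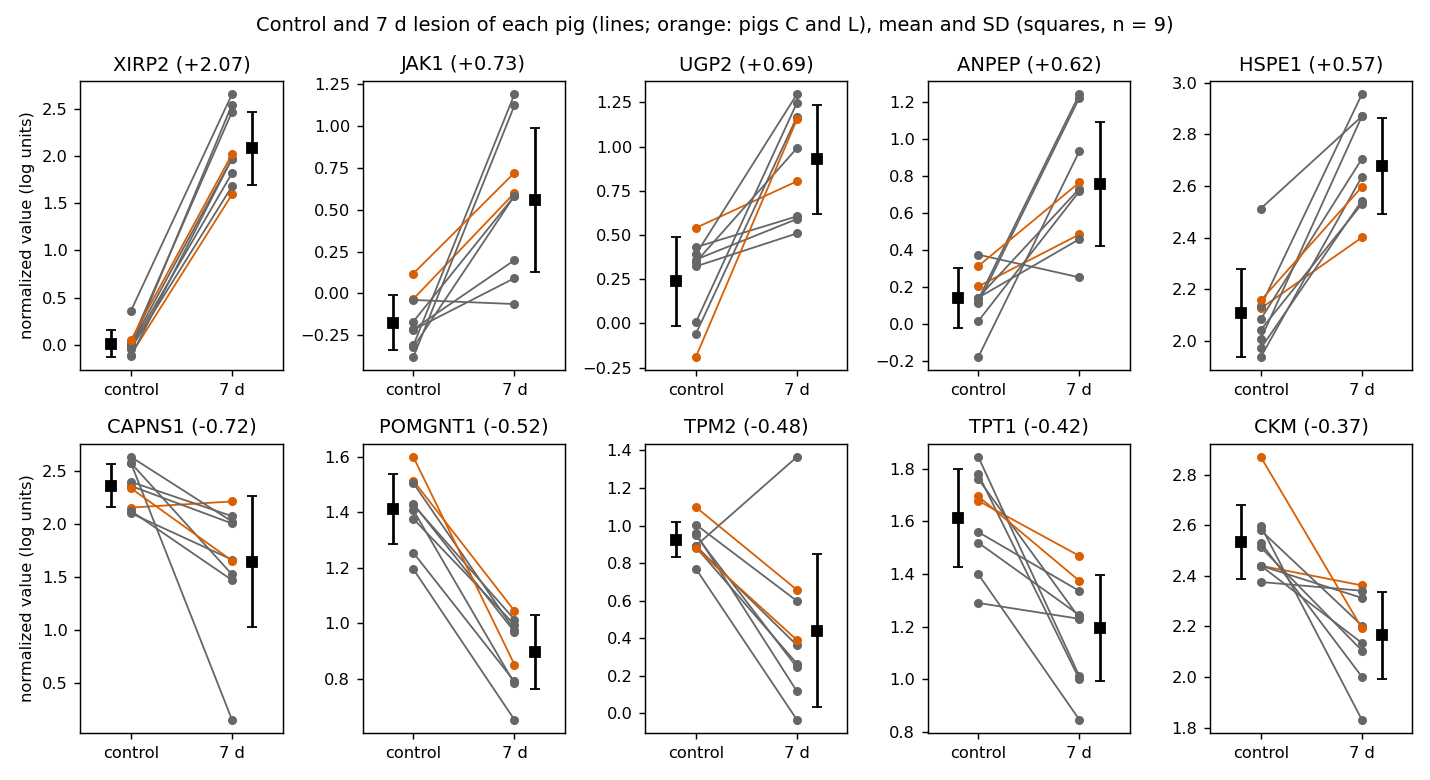
Normalized value (vertical axis, log units) of the control and the 7 d lesion in each of 9 pigs, joined by lines, for 5 genes called higher (top) and 5 called lower (bottom), with the mean difference beside each name. Squares and bars are means and SD (n = 9), and orange lines are pigs C and L. For XIRP2, POMGNT1 and CKM no lesion overlaps the controls, while CAPNS1 and TPM2 each hold 1 lesion far from the other 8.

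The falls were led by CAPNS1, the small regulatory subunit of the calpains, which are calcium-dependent proteases. Its values ran from 2.10 to 2.64 in controls (median 2.36) and from 0.15 to 2.22 in lesions (median 1.67). Pig G stood apart with a lesion at 0.15, and pig C was the only pig with a higher value in the lesion. CAPNS1 fell by 0.72 (SE 0.193, adjusted p = 0.016). POMGNT1, which extends the sugar chains by which dystroglycan anchors the fibre to the matrix, ran from 1.19 to 1.60 in controls (median 1.43) and from 0.65 to 1.04 in lesions (median 0.97). Every lesion lay below every control, and POMGNT1 fell by 0.52 (SE 0.0657, adjusted p = 0.000143). DMD, dystrophin, is the other measured member of that membrane list and differed by 0.06 (95% interval -0.08 to 0.20), not called. DMD was called on the deposited values, at 0.31 (adjusted p = 0.031), outside that interval. The DMD feature lay above only 0.63% of all features by mean value, so either difference says little about DMD.

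In energy metabolism the highest-valued feature of CKM, muscle creatine kinase, ran from 2.38 to 2.87 in controls (median 2.51) and from 1.83 to 2.36 in lesions (median 2.19). No lesion reached the lowest control, and CKM fell by 0.37 (SE 0.0893, adjusted p = 0.00983). TPI1, the glycolytic triosephosphate isomerase, ran from 1.80 to 2.30 in controls (median 2.00) and from 1.32 to 2.02 in lesions (median 1.51), and it fell by 0.39 (SE 0.075, adjusted p = 0.00247) in 9 of 9 pigs. Of the 8 measured genes of glycolysis and glycogen 1 rose (UGP2), 1 fell (TPI1) and 6 were not called. Over all features 10.1% were higher and 12.5% lower. The list median was -0.23, beside -0.01 over all features, and -0.12 over all 16 features of these genes. In the highest-valued of 4 groups of all features, which holds TPI1, PFKM and UGP2, the median was -0.155. On the deposited values 0 of the 8 were higher and 4 lower by limma, with a median of -0.86, and with median absolute deviation scaling 1 was higher and 0 lower. PFKM, phosphofructokinase of muscle, has features that differed in sign. Its highest-valued feature was at -0.30 (SE 0.123, adjusted p = 0.106), and its other feature rose by 0.27 (SE 0.0862, adjusted p = 0.0363) in 8 of 9 pigs. COX7A1, the muscle form of a cytochrome oxidase subunit, fell by 0.35 (SE 0.102, adjusted p = 0.0235) in 8 of 9 pigs. It was the 1 called gene of 8 measured in oxidative phosphorylation and the citrate cycle, beside 22.5% called and 12.5% lower over all features. Its call ended without pig D, E, F or K (adjusted p from 0.0508 to 0.0638). IDH2, the mitochondrial isocitrate dehydrogenase of the same list, was at 0.27 (SE 0.106, adjusted p = 0.0938). It was called at 0.35 without pig E (adjusted p = 0.0158), and on the deposited values its sign turned, at -0.70, not called (adjusted p = 0.105). PNPLA2, the triglyceride lipase, fell by 0.46 (SE 0.132, adjusted p = 0.0237) in 8 of 9 pigs, a call that ended without pig E (adjusted p = 0.0555) or I (0.0521), while FABP3 and HADHA of the lipid list were not called.

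Genes of the sarcomere and of fibre types did not share a direction. Of 6 measured genes in a list of slow and cardiac-type genes, not all of the sarcomere, 2 rose and 1 fell. Over all features 10.1% rose and 12.5% fell. MYH7, a myosin heavy chain of slow and cardiac fibres, was up by 0.45 (SE 0.101, adjusted p = 0.0058), and NPPA, the atrial natriuretic peptide gene, by 0.33 (SE 0.0908, adjusted p = 0.0188). ATP2A2, the slow calcium pump of the sarcoplasmic reticulum, fell by 0.26 (SE 0.0808, adjusted p = 0.0318), and the other 3 were not called. MYH7 was higher in 8 of 9 pigs, with values from 0.33 to 0.85 in controls and from 0.80 to 1.35 in lesions, but on the deposited values its difference was 0.01, and another feature of MYH7 fell by 0.59 (adjusted p = 0.00204). Without pig D NPPA was not called (adjusted p = 0.0537), and ATP2A2 was not called without pig D, E, I, K or L (adjusted p from 0.0553 to 0.0844). Of 8 measured genes of fast fibres 0 were called by limma on their highest-valued features, among them MYLPF, TPM1 and TNNI2 with the smallest adjusted p (from 0.184 to 0.415). Over all 42 features of these genes 2 were called higher and 7 lower, beside 10.1% and 12.5% of all features. On the deposited values MYLPF was called at -1.005 (adjusted p = 0.0252) and TNNI2 at 0.30 (0.0345), and TPM1 turned from 0.21 to -0.81 (0.0581). The TNNI2 feature lay above only 2.57% of all features by mean value. TPM2, beta-tropomyosin of the thin filament, ran from 0.77 to 1.10 in controls (median 0.89) and from -0.03 to 1.37 in lesions (median 0.36). Its lesions lay below all controls in 8 pigs and above all controls in pig E. TPM2 fell by 0.48 (SE 0.117, adjusted p = 0.00959), while its other features, at 0.14 and 0.002, were not called. With XIRP2 it was 1 of 2 genes called among 8 of the sarcomere and Z disc, near the share of 22.5% called over all features. Of all 15 features of these 8 genes 1 was called higher and 1 lower. In the same list SMPX, a small protein of the costameres, was at 0.21 (SE 0.0788, adjusted p = 0.0823). SMPX was called at 0.25 without pig G (adjusted p = 0.0421), and on the deposited values its sign turned, at -0.32, not called.

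Of the 16 measured genes of the ribosome and translation 2 fell (12.5%, as over all features), 0 rose and 14 were not called by limma. Without normalization 5 fell and 0 rose. TPT1, the translationally controlled tumour protein, fell by 0.42 (SE 0.0909, adjusted p = 0.00476), from 1.29 to 1.85 in controls (median 1.68) to 0.85 to 1.47 in lesions (median 1.23). RPL19, a protein of the large ribosomal subunit, fell by 0.30 (SE 0.0811, adjusted p = 0.0157), and both fell in 9 of 9 pigs. The other feature of TPT1 was at -0.02 and that of RPL19 at -0.01, neither called. The median of the list was 0.10, beside -0.01 over all features, and it turned to -0.07 on the deposited values. Over all 23 features of these genes the median was -0.01. RPS26, of the small subunit, was at 0.22 (SE 0.0895, adjusted p = 0.095) and was called without pig G (adjusted p = 0.0455).

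Further falls were in RABAC1, a membrane protein of the Golgi (-0.50, 9 of 9 pigs), SLC35A4, of a family of nucleotide sugar transporters (-0.39, 7 of 9), HTT, huntingtin (-0.38, 8 of 9), QDPR, which regenerates tetrahydrobiopterin (-0.37, 8 of 9), and TUBA1B, an alpha-tubulin (-0.23, 9 of 9). Their adjusted p ran from 0.00459 for QDPR to 0.0179 for HTT. RABAC1 differed by only -0.004 in pig K and -0.02 in pig L, and it was not called with all 5 groups in the fit (limma, adjusted p = 0.127). TUBA1B had no overlap between groups, with controls from -0.28 to -0.11 and lesions from -0.50 to -0.31, but its difference on the deposited values was -0.06. The TUBA1B feature lay above only 13.2% of all features by mean value. HTT was not called without pig D (adjusted p = 0.0517) or pig E (0.0501). In the list of the non-muscle cytoskeleton TUBA1B was the 1 called gene of 5, near the share of 22.5% called over all features. The highest-valued feature of ACTB, beta-actin, was at 0.19 and that of CFL1, cofilin, at -0.22, neither called. CFL1 was called without pig E (adjusted p = 0.0436). The 7 features of ACTB ran from -0.06 to 0.26, and only the one at 0.26 was called (adjusted p = 0.0357, 8 of 9 pigs). That feature lay above only 11.7% of all features by mean value.

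Few genes that mark the other cells of a lesion were measured. Neutrophil, lymphocyte and erythrocyte markers had 0 measured genes. FN1, fibronectin of the extracellular matrix, was at -0.17 (95% interval -0.42 to 0.08), CD74, of antigen-presenting cells, at -0.07 (-0.23 to 0.10), PECAM1, of endothelium, at -0.06 (-0.26 to 0.15), HMGB2, a chromatin protein of dividing cells, at -0.02 (-0.19 to 0.15), and DES, desmin of muscle cells, at -0.19 (-0.69 to 0.30). None of these 5 was called. Each was the only measured gene of a marker list of 9 to 39 genes, so those cell types were hardly read. B2M, the light chain of class I histocompatibility molecules, was at 0.53 (SE 0.242, adjusted p = 0.141), with differences from -0.79 in pig G to 1.76 in pig D and 6 of 9 pigs higher. Without pig G B2M was called at 0.70 (adjusted p = 0.0399), and on the deposited values over all 9 pigs its sign turned, at -0.11 (adjusted p = 0.834). The acute phase and iron genes ORM1 and FTH1 were at -0.13 and -0.15 and were not called, nor were the redox genes GPX4 and SELENOW, at -0.13 and -0.17, or the calcium genes RYR1 and SLN, at 0.03 and -0.03. Over all genes with a symbol, in a list or not, 98 of 121 were not called. Their differences ran from -0.48 (MYOZ1) to 0.53 (B2M), 49 above 0 and 49 below, with 20 at an unadjusted p below 0.05. HSP90AA1, a cytosolic chaperone, and VDAC1, a pore of the mitochondrial outer membrane, were among them at -0.25 and -0.15, and HSP90AA1 was called at -0.32 without pig H (adjusted p = 0.0338).

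Features with the same symbol did not share their changes. Of 31 genes with at least 2 features, 3 had called features in both directions, 3 only higher, 8 only lower and 17 none. MYLPF, the regulatory light chain of fast myosin, had 18 features, of which 2 rose (by 1.18 and 0.74) and 3 fell (by 0.60, 0.49 and 0.40). The rise of 1.18 was among the 21 of at least 1 log unit, and its lesions lay above all controls. CKM had 4 features that fell and 1 that rose, of 10, with differences from -0.44 to 0.40. MYH7 had 1 that rose and 1 that fell, of 4, at 0.45 and -0.59. TNNC2, troponin C of fast fibres, had 4 features that fell, of 12, by 0.33 to 0.54, and its highest-valued feature was at 0.07 (SE 0.348, adjusted p = 0.916). RACK1, ENO3, RPL11 and RPS20 (chosen after their values were seen) each had 1 feature that fell, at -0.41, -0.45, -0.48 and -0.30, beside features not called. With the mean over all features of a gene in place of the highest-valued one, 20 genes were called in place of 23.

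**Figure D3:**
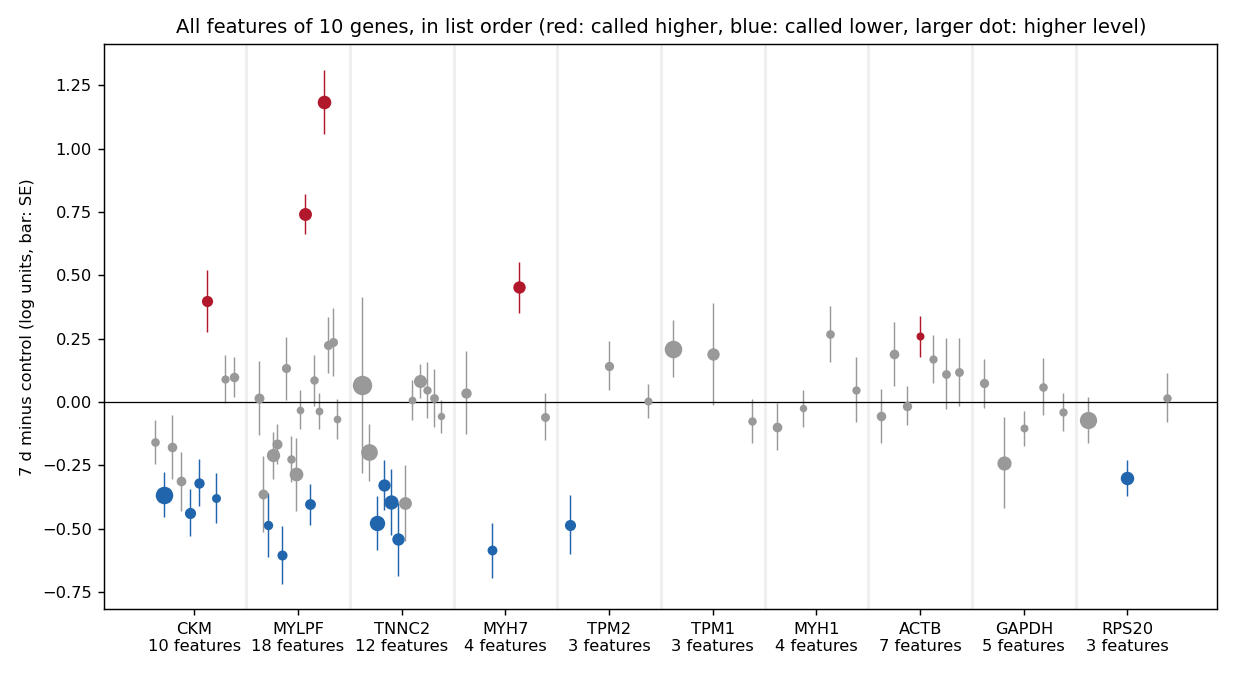
Difference between the 7 d lesion and control (vertical axis, log units, bars are SE) for each feature of 10 genes with several features, in the order of the deposited list. Red and blue points were called higher and lower, grey points were not called, and larger points have a higher mean value. MYLPF spans -0.60 to 1.18 under 1 symbol.

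The largest changes lay in features without a symbol, of which 387 were called, 179 higher and 208 lower. Feature 5139 rose most, from 0.76 to 1.08 in controls (median 0.99) to 2.65 to 3.91 in lesions (median 3.45), a difference of 2.45 (SE 0.132, adjusted p = 4.47e-08). Next came features 7368, 4842, 7914 and 7142, at 2.12, 1.82, 1.60 and 1.59. In all 5 every lesion lay above every control, and their adjusted p was at most 3.51e-06. The largest falls with the same sign in 9 of 9 pigs were in features 5135, 5616, 5970, 5039 and 6016, at -0.81, -0.81, -0.80, -0.78 and -0.77, with adjusted p of at most 0.000424. In 4 of these 5 no lesion overlapped the controls, and in feature 5616 8 of 9 lesions lay below them. Their controls ran from 0.64 to 1.49 and their lesions from -0.35 to 0.94.

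The pigs differed in the size of the response. The median difference of the 192 features called higher ran from 0.41 in pig H to 0.84 in pig D, and that of the 238 called lower from -0.20 in pig C to -0.63 in pig E. Across features, the differences of a pig correlated with the mean of the other 8 at r from 0.37 (pig C) to 0.76 (pig D), a description over features, which are not independent replicates. The spread of values within an array moved with the groups. Before normalization its SD was 0.944 ± 0.227 in controls and 0.607 ± 0.158 in lesions (SD, n = 9), lower in the lesion in 7 of 9 pigs (two-sided exact sign-flip permutation test, p = 0.0234). Pigs C and L went the other way, from 0.528 to 0.782 and from 0.594 to 0.770. In the other 7 pigs alone 534 features were called, 218 higher and 316 lower. The mean of pigs C and L was above 0 for 69.7% of those 218, against 46.4% of all features, and below 0 for 58.2% of those 316, against 53.6% of all. The median of the higher set was 0.54 in the 7 pigs and 0.30 in pigs C and L, and that of the lower set -0.45 and -0.09. XIRP2 differed by 1.70 in pig C and 1.97 in pig L, POMGNT1 by -0.47 and -0.75, and CAPNS1 by 0.06 and -0.68. With the array SD as a term in the fit 138 features were called, 103 higher and 35 lower, and of the 23 genes XIRP2 at 1.89, HSPE1 at 0.45 and POMGNT1 at -0.55 remained (adjusted p = 7.13e-06, 0.0235 and 0.00358). On the deposited values 14 of the 15 falls, all but TUBA1B, were called at -1.57 (CAPNS1) to -0.31 (ATP2A2), with CKM at -1.28 and TPI1 at -1.22, and of the 8 rises XIRP2, JAK1, ANPEP and NPPA were called. The deposited values also called 8 named genes that were not called after normalization. These were MYLPF, TNNI2 and DMD, given above, PFKM at -1.06, HSP90AA1 at -1.09, MAPK12 at -1.25, CFL1 at -1.09 and GPX4 at -0.94. Of the 28 named genes not called after normalization 8 had the opposite sign on the deposited values, namely TPM1, SMPX, IDH2, VDAC1, B2M, HMGB2, HADHA and SLN, none of them called there. With arrays scaled by their median absolute deviation the calls of HSPE1, MGST3 and 10 of the 15 falls ended, with sizes on that scale of 1.03 for HSPE1, -0.51 for RABAC1, -0.48 for TPT1, -0.37 for TPI1 and -0.18 for CKM.

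The share of features called also moved with the value of the spot. With features split by mean value into 4 groups of 477, the shares called from the lowest group to the highest were 2.52%, 9.64%, 29.4% and 48.6%, and 53 of the 121 genes lay in the highest. A spot's value depends on its clone and is not a measure of transcript number between genes. The tissue is labelled as muscle, and the highest-valued features of CKM, TNNC2, DES and TPM1 lay above 96.0% (DES) to 99.4% (TNNC2) of all features. Other muscle genes lay lower, with the highest-valued features of MYH1, TNNT3, MYL2 and TNNI2 above 60.3%, 48.8%, 37.9% and 2.57%. Further features of CKM, DES and TNNC2 lay above as few as 18.5%, 16.5% and 0.16%. MYL1, an essential light chain of fast fibres, had its feature in the lowest of these groups, with a mean of -0.24 over all samples.

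The place of a feature in the deposited list was a further measure that moved with the result. In the first 2304 places 104 of 1319 tested features were higher and 233 lower (median difference -0.08), and in the last 2304 places 88 of 589 were higher and 5 lower (median 0.08). With a running median over 100 features subtracted from each array, 126 were higher and 194 lower in the first part, and 52 and 8 in the last. The calls of NPPA, MGST3, CKM, RPL19, ATP2A2 and TUBA1B ended under that correction (adjusted p from 0.0801 to 0.702), and CKM was then at -0.18. XIRP2 and the MYLPF feature that rose most lie in the last part. Of the 21 rises of 1 or more, 8 lie between places 3073 and 3456, a stretch chosen after the values were seen, in which 36 of 187 tested features were called higher and 2 lower.

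**Figure D4:**
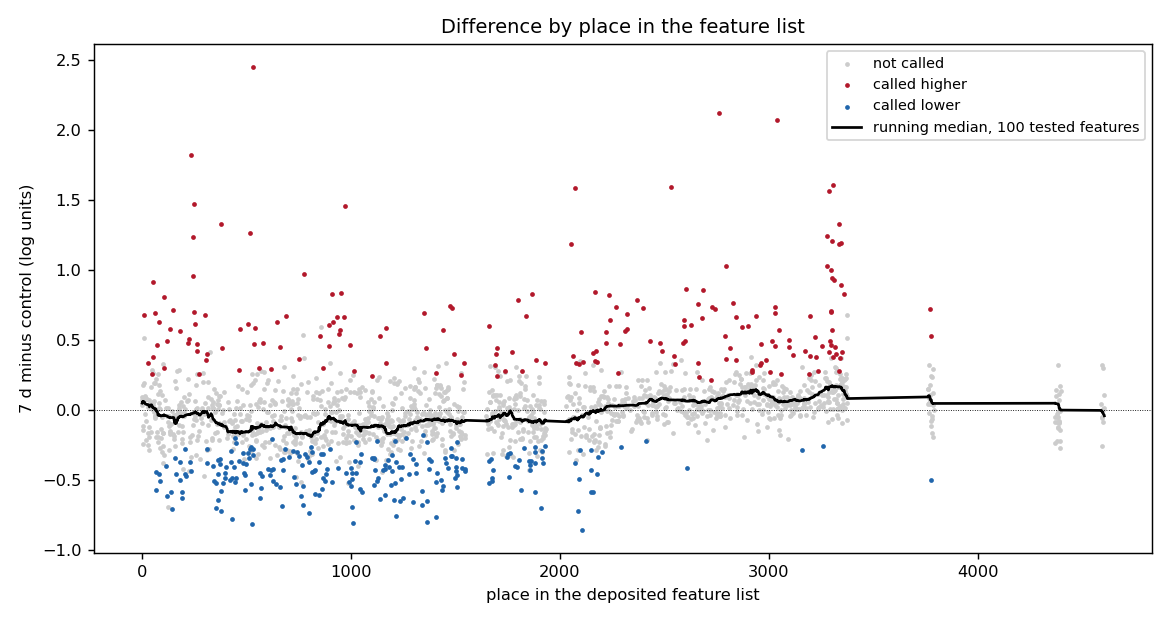
Difference between the 7 d lesion and control (vertical axis, log units) by place in the deposited list of 4608 features (horizontal axis). Red and blue points were called higher and lower, grey points were not called, and the black line is the running median over 100 tested features. The blue points lie mostly in the first 2304 places, where 233 of the 238 falls are.

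The other lesion ages place the 7 d values. These comparisons used all 5 groups, without 1 array of a 6 h lesion (pig F) whose values did not line up with those of the other arrays and without a copied column of another (pig J). Lesions of 7 d differed from those of 2 d in 315 features (16.5%), 181 higher and 134 lower at 7 d. They differed from 6 h lesions in 31 (1.62%) and from 21 d lesions in 13 (0.681%). Of the 192 features called higher than control at 7 d 136 were also higher than at 2 d, and of the 238 called lower 107 were also lower than at 2 d. The 192 had a median difference from control of 0.53, against 0.39 in 6 h lesions, 0.08 in 2 d lesions and 0.34 in 21 d lesions. For the 238 the median was -0.43, against -0.27, -0.13 and -0.30 at the same ages. All 21 features that rose by 1 or more were higher at 7 d than at 2 d. All ages share the same controls, and the features were chosen by their 7 d values, which the comparison with 2 d uses again. The counts and medians of these chosen features are therefore a description.

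By gene, 16 of 121 differed between 7 d and 2 d, 4 between 7 d and 6 h (XIRP2, ANPEP, PFKM and POMC, the last chosen after its value was seen), and 0 between 7 d and 21 d, by limma. At an unadjusted p below 0.05, 161 features differed between 7 d and 21 d. XIRP2 averaged 1.17 ± 0.19 (SD, n = 9) in lesions of 6 h and 0.07 ± 0.22 (n = 10) in those of 2 d. Lesions of 21 d averaged 2.20 ± 0.44 (n = 9), beside 2.08 ± 0.39 at 7 d. At 7 d it was higher than at 2 d by 1.99 (SE 0.115, adjusted p = 9.4e-17) and than at 6 h by 0.87 (SE 0.119, adjusted p = 4.1e-06). It differed from 21 d by -0.14 (SE 0.119, adjusted p = 0.808). JAK1 was higher at 7 d than at 2 d by 0.55 (SE 0.11, adjusted p = 0.000339) and differed from 6 h by 0.05 (adjusted p = 0.941). ANPEP had means of 0.29, 0.32, 0.76 and 1.25 from the youngest to the oldest lesions, and 7 d differed from 2 d (adjusted p = 0.0063) and from 6 h (0.0372) but was not called against 21 d (0.0564). CAPNS1, POMGNT1, TPT1, SLC35A4, QDPR, CKM and COX7A1 were lower at 7 d than at 2 d, by 0.26 (CKM) to 0.65 (CAPNS1). For the highest-valued feature of PFKM 7 d differed from 6 h by -0.52 and from 2 d by -0.37, both called. Of the features without a symbol, 4842 and 7142 were higher at 7 d than at 21 d, by 0.58 and 0.64 (adjusted p = 0.0323 each), while 5139 and 7368 were at -0.32 and -0.22 and not called.

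The counts between ages rest on single pigs in part. Against 6 h the count was 31 with all pigs and 18 without pig D, 13 without E, 20 without G, 20 without I, 13 without K and 10 without L. Against 21 d it was 13 with all pigs and 20 without pig D, 7 without E, 7 without G, 3 without H, 7 without I and 5 without K. On the deposited values 0 features were called against 6 h and 0 against 21 d by limma, with 112 and 20 at an unadjusted p below 0.05, and 127 against 2 d.

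**Figure D5:**
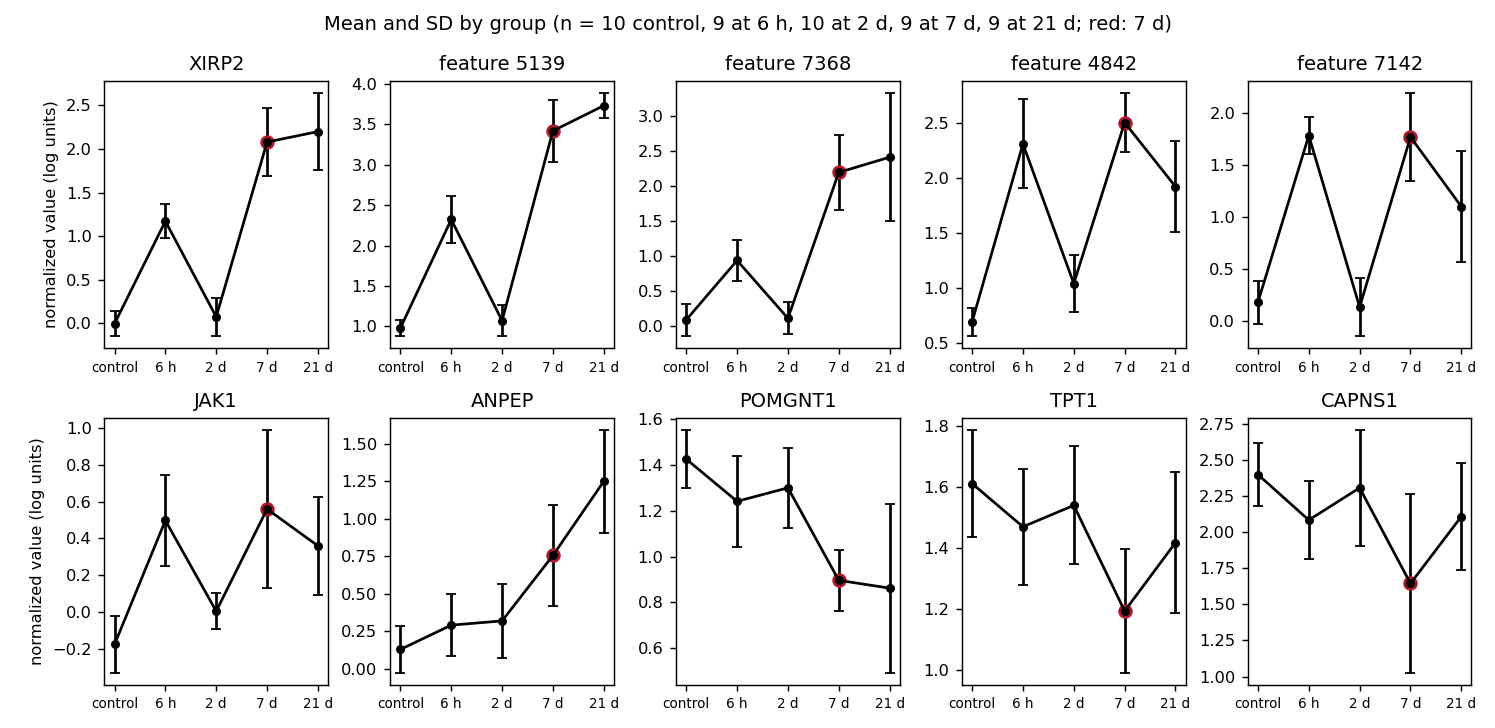
Normalized value (vertical axis, log units) by group, as mean and SD (n = 10 for controls and 2 d lesions, n = 9 for the other ages), for 6 genes and 4 features without a symbol, with 7 d in red. XIRP2 and features 5139, 7368, 4842 and 7142 are high at 6 h, near control at 2 d and high at 7 d.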

How the data were processed

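RNA of 48 muscle samples was hybridised to nylon cDNA arrays, taken here as 1 array for each sample. The deposited table holds log values of an unstated base (a unit other than counts or intensities), and the sources used here do not say how the authors scaled them. It lists 4608 features in 90 columns. Where a sample had 2 columns they were averaged. The titles of the 2 columns differ, but 41 of 42 pairs held identical values, so they count as 1. Values were quantile-normalized over all 48 samples. The paired test was limma 3.58.1 in R 4.3.3, with the animal as a fixed block and two-sided p-values, and the script was tested on simulated data. The pairing rests on the shared animal, as deviations from group means correlated at a median of -0.143 within pigs and 0.0382 between pigs. Tables and figures used pandas 2.3.3 and matplotlib 3.10.9.

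Genes named are up to 15 called rises and 15 called falls that moved alike in 7 or more of the 9 pigs (1 feature per gene), the 3 members of each of 27 lists with the smallest adjusted p, and 5 rises and 5 falls without a symbol. Members and lists were chosen with earlier results of these data known. The number of arrays limits the precision. Alternatives were other scalings, other terms for the animal, a filter on low values, array weights, a local trend and each pig left out. No sequences are given, since none were used here.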

Additional observations from a re-analysis of the deposited data

Results flagged for a closer look

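In 14 of 122 groups of values tested, 1 sample lay far from the others of its group by Dixon's criterion, which chance alone flags in about 1 of 20 groups. Among controls these were pig D for XIRP2 (0.36, next 0.05), MGST3 (0.21, next 0.49) and FTH1 (0.61, next 0.27), pig E for HSPE1 (2.51, next 2.16), QDPR (0.74, next 1.16), IDH2 (2.87, next 2.30) and feature 5139 (0.76, next 0.91), pig G for HMGB2 (-0.53, next -0.34) and pig K for FABP3 (1.16, next 0.53). Among 7 d lesions they were pig G for CAPNS1 (0.15, next 1.47), pig E for TPM2 (1.37, next 0.66), pig H for SMPX (1.56, next 1.22), pig D for PECAM1 (0.59, next 0.09) and pig I for FABP3 (0.99, next 0.32).

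Several 7 d lesions differed from another lesion age by the test of that difference in limma. Against 2 d XIRP2 (1.99), JAK1 (0.55), UGP2 (0.40), ANPEP (0.45), HSPE1 (0.30) and IDH2 (0.29) were higher at 7 d, as were features 5139 (2.35), 7368 (2.08), 4842 (1.47), 7914 (1.59) and 7142 (1.59). CAPNS1 (-0.65), POMGNT1 (-0.41), TPT1 (-0.36), SLC35A4 (-0.32), QDPR (-0.30), CKM (-0.26), COX7A1 (-0.31) and PFKM (-0.37) were lower than at 2 d, as were features 5135 (-0.55), 5616 (-0.65), 5970 (-0.43), 5039 (-0.52) and 6016 (-0.55). Against 6 h XIRP2 (0.87), ANPEP (0.47) and features 5139 (1.11) and 7368 (1.24) were higher, and PFKM (-0.52) and feature 5039 (-0.52) lower. Against 21 d features 4842 (0.58) and 7142 (0.64) were higher. The adjusted p of these differences ran from 5.68e-19 (feature 5139 against 2 d) to 0.0389 (SLC35A4 against 2 d).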

How the results depend on the processing

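Of 33 called differences of named features, all kept their direction under every alternative run except HSPE1 and MGST3. These reversed on the deposited values (-0.39 and -0.0741) and on median-centred values (-0.37 and -0.0586), none past the test. Against 430 called features (192 higher, 238 lower) and 23 genes, the deposited values gave 127 higher and 38 genes, median-centred values 39 genes, scaling by the median absolute deviation 269 features (130 lower) and 11 genes, and the array SD in the model 138 features (103 higher, 35 lower) and 3 genes. The cause was not tested. The animal was a fixed block in the paired fit, and with no replicate block 542 features were called. Leaving out 1 pig gave 334 to 457 features and 19 to 27 genes. Without pigs C and L, an alternative chosen after seeing the data, there were 534 features and 27 genes.

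Alternatives for the comparisons between ages were also chosen after seeing the data. Against 6 h (31 called) they gave 0 on the deposited values (limma, 112 unadjusted), 1 median-centred (115 unadjusted), 17 with the local trend subtracted and 10 to 40 without 1 pig. Against 2 d (315) they gave 127 on the deposited values and 177 median-centred. Against 21 d (13) they gave 0 on the deposited values (limma, 20 unadjusted), 1 median-centred, 5 with the local trend subtracted, 5 with the 6 h array of pig F and 3 to 20 without 1 pig. Arrays without a stated log base or background limit what a difference of a given size means.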
